A study of Mus musculus with 3 samples.

Results

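The change in the bone marrow (BM) transcriptome after 3 days of LECT2 was described across all genes that the deposited comparison of 3 days with 0 days lists. This table holds 17050 rows with 16788 gene names, of 17249 names in the tables of 0 against 3 days and 0 against 5 days, and rests on 2 of the 3 libraries of the series. A gene entered by having a row in this table, whatever its change. LECT2 (leukocyte cell-derived chemotaxin 2) is a secreted protein made mainly by the liver. In the study, C57BL/6 mice of 6 to 8 weeks, male by the methods, received recombinant LECT2 under the skin at 300 μg per kg once a day for 3 days, and the mice of 0 days received none. By the labels and methods, cells flushed from long bones and pelvis were used, while a legend of the study names BM mononuclear cells. Which of these the neutrophil and erythroid values below describe is not settled by these sources. RNA was enriched with oligo(dT) beads. The number of mice behind a library and a vehicle injection at 0 days are not given in the sources used here. There was 1 library per time point. No difference therefore has a replicate check, and no p-value was computed.

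The BM makes granulocytes, monocytes, erythroid cells, platelets and B cells from haematopoietic stem cells (HSCs), and holds a smaller number of T cells, natural killer (NK) cells, macrophages and stromal cells. Phagocytes of the BM sense microbes through Toll-like receptors (TLRs), which signal through adaptor proteins such as MYD88 to NF-kB and AP-1. NF-kB switches on cytokines, chemokines and its own inhibitors, so that the inhibitor genes are themselves readouts of the pathway. LECT2 binds CD209a, a C-type lectin of dendritic cells and macrophages, and MET, a receptor tyrosine kinase.

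The libraries were of like depth, with 15523952 reads on genes at 0 days and 15146983 at 3 days. The unit is RPKM, the reads on a gene scaled for its length and for the reads of the library, and differences are log2 ratios of RPKM + 0.1, a scale on which the change of low genes is too small. Beside a log2 ratio stands its 95% interval (exact, Clopper-Pearson), computed from the read counts on both sides. It covers counting error only, since copies made by PCR were not told apart by molecular identifiers. Of 11325 genes with at least 1 RPKM in either library, 462 (4.08%) passed 2-fold upwards at 3 days and 273 (2.41%) downwards. For the lists of genes, the mean of both libraries had to reach 1 RPKM. Among all 11034 such genes, 399 (3.62%) were at least 2-fold higher and 225 (2.04%) lower, and the median log2 ratio was 0.09. As this median lies above 0, more of these genes were higher than lower, which bears on the counts of higher members below. TMM scaling, which assumes that most genes do not change, gave 290 higher (2.63%) and 297 lower (2.69%) and a median of 0.01. The log2 ratio also went up with the length of the gene. Removal of this trend by a smooth curve left 238 higher (2.16%) and 160 lower (1.45%), around a median of 0.00. Values of lists are therefore with the deposited RPKM, unless they are said to be without the length trend. In such bulk libraries, fewer cells of a type and less RNA per cell cannot be told apart.

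To count as a leading gene, a gene needed 5 RPKM or more in 1 of the libraries and over 3 reads in both, and had to pass 2-fold with the deposited RPKM, under TMM scaling and with the length trend removed. There were 81 higher and 37 lower, of which the 10 with the largest ratios each way are given. Cpeb4, which binds mRNA tails and controls translation, was at 1.45 RPKM at 0 days and 10.3 RPKM at 3 days, from 52 and 361 reads. Uhmk1, a kinase that binds RNA, was at 1.07 and 7.41 RPKM. Cbl, a ubiquitin ligase that shuts off receptor tyrosine kinases, was at 2.56 and 15.4 RPKM, and Lyst, a regulator of lysosome size, at 3.13 and 14.8 RPKM. Tlr8, an endosomal receptor for RNA, was counted with 48 reads at 0 days and 300 reads at 3 days. Its log2 ratio of 2.56 (2.24 to 3.15) was 2.48 under TMM scaling and 2.38 with the length trend removed. Zbed6, a transcriptional repressor, Cd101, a surface protein of neutrophils and other leukocytes, Abhd2, a lipase, and the predicted gene Gm14492 had log2 ratios from 2.001 (Abhd2) to 2.11 (Gm14492). Fn1, which encodes fibronectin, was the most abundant of the 10, at 25.9 RPKM at 0 days and 102 RPKM at 3 days, with a log2 ratio of 1.97 (1.92 to 2.03).

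**Figure D1:**
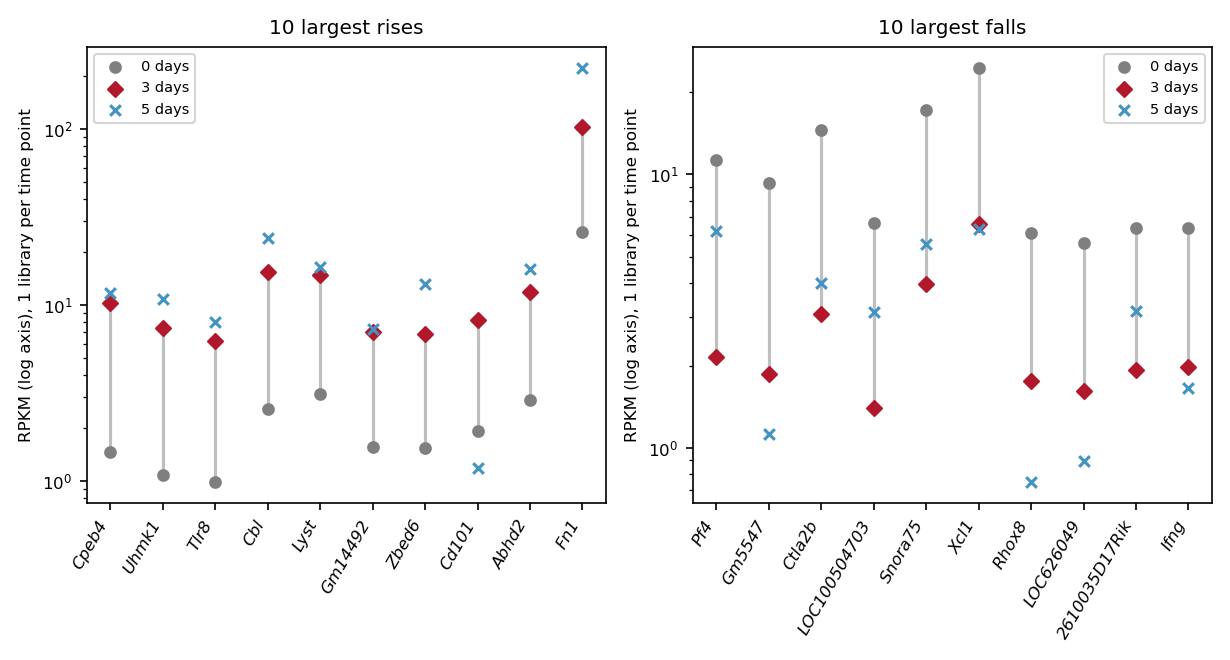
RPKM on a log axis of the 10 largest differences upwards (left) and downwards (right) among genes with at least 5 RPKM in either library that were at least 2-fold changed with the deposited RPKM, under TMM scaling and with the length trend removed. Each point is 1 library at 0, 3 or 5 days, and grey lines join 0 and 3 days. At 5 days Cd101 was at 1.19 RPKM, under its 1.92 RPKM at 0 days, while the other 9 genes on the left stayed above their level at 0 days.

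The 10 genes downwards included Pf4, Xcl1, Ifng and several unnamed loci. Pf4, the platelet chemokine PF4, was counted with 108 reads at 0 days and 20 reads at 3 days, with a log2 ratio of −2.34 (−3.16 to −1.70). Ctla2b, which encodes an inhibitor of cathepsins, was at 14.5 RPKM at 0 days and 3.08 at 3 days. Its relative Ctla2a, known from progenitor and T cells, was at 62.7 and 21.3 RPKM, with a log2 ratio of −1.55 (−1.72 to −1.40). Xcl1, the lymphotactin made by NK and T cells, was at 24.5 and 6.58 RPKM, and Ifng, which encodes interferon-γ, at 6.35 and 1.97 RPKM, with 119 reads and 36 reads. The homeobox gene Rhox8, the small nucleolar RNA Snora75 and the unnamed loci Gm5547, LOC100504703, LOC626049 and 2610035D17Rik make up the rest, with log2 ratios from −2.25 (Gm5547) to −1.67 (2610035D17Rik). Most of these rest on few reads. LOC100504703 and Snora75 had 7 reads each at 3 days.

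Several receptors of the TLR family were at least 2-fold higher. The list holds 18 receptors, co-receptors and adaptors, all with a mean of at least 1 RPKM. Its median log2 ratio was 0.48, beside 0.09 over all genes, and 5 of 18 members were at least 2-fold higher and 0 lower, where 3.62% of all genes were higher. Besides Tlr8, these were Tlr5, the receptor of flagellin, Tlr4, the receptor of lipopolysaccharide, Tlr9, the endosomal receptor of unmethylated DNA, and Tlr6, a partner of TLR2. Tlr5 was counted with 41 reads at 0 days and 188 reads at 3 days (log2 ratio 2.10, 1.74 to 2.76). Tlr5 and Tlr8 were under 1 RPKM at 0 days and reached the mean of 1 RPKM only through the 3-day library. Tlr4 had 82 and 218 reads (1.38, 1.07 to 1.83), Tlr9 258 and 643 reads (1.33, 1.14 to 1.57) and Tlr6 89 and 194 reads (1.12, 0.79 to 1.54). All 5 stayed at least 2-fold higher with the length trend removed, where the median of the list was 0.37. At 5 days Tlr5, at 1.89 RPKM, stood between its levels of 0.82 RPKM at 0 days and 3.87 RPKM at 3 days, and Tlr8 stood at 7.98 RPKM, above its 6.27 RPKM at 3 days.

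The signalling parts of the same family and the most abundant receptors differed less. Tlr2, at 47.1 RPKM at 0 days and 54.9 at 3 days, and Tlr13, a receptor of bacterial ribosomal RNA, at 25.9 and 42.2 RPKM, were the most abundant receptors, with log2 ratios of 0.22 and 0.70. Tlr1, which pairs with TLR2, lay just under the 2-fold line with 149 and 294 reads, and Tlr7, another endosomal receptor for RNA, had a log2 ratio of 0.50. The adaptor Myd88, at 44.96 and 49.1 RPKM, had a log2 ratio of 0.13 (0.02 to 0.24), which was 0.04 under TMM scaling. Irak1 and Irak4, the kinases downstream of MYD88, had log2 ratios of −0.08 and 0.35, and Irak3, an inhibitor among these kinases, had 0.80. The co-receptor Cd14 was the member with the lowest ratio, at 148 RPKM at 0 days and 99.3 at 3 days. The 5 receptors past 2-fold had 41 (Tlr5) to 258 (Tlr9) reads at 0 days, against 1613 for Tlr13 and 2103 for Tlr2. The 5 lie between 2.003 and 11.2 RPKM by the mean of both libraries, where 6.44%, 6.26%, 4.08% and 3.81% of all genes were at least 2-fold higher, by decile from low to high.

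Most monocyte genes were higher. Of 21 members tested, 18 were higher and 3 were lower, with a median of 0.47. The median was 0.39 under TMM scaling and 0.61 with the length trend removed. At least 2-fold higher were 3 of 21, where 3.62% of all genes were, namely Fn1, described above, F13a1, the coagulation factor XIII subunit made by monocytes, and Vcan, the matrix proteoglycan versican. F13a1 was at 72.04 and 177 RPKM (log2 ratio 1.29, 1.24 to 1.35), with 365 RPKM at 5 days. Vcan was at 0.85 and 2.94 RPKM, or 164 and 554 reads, and at 10.6 RPKM at 5 days. It reached the mean of 1 RPKM only through the 3-day library, and its ratio of 1.68 was 0.99 without the length trend, under 2-fold. Fn1 stood at 223 RPKM at 5 days, so all 3 were above both earlier levels then. Ccr2, the chemokine receptor with which monocytes leave the BM, was at 45.1 and 85.8 RPKM (0.93, 0.86 to 1.00), and Csf1r, the receptor of macrophage colony-stimulating factor, at 26.7 and 49.6 RPKM (0.89, 0.81 to 0.98). The most abundant members differed less. Lyz2, which encodes lysozyme and is shared with neutrophils, was at 3878 and 5120 RPKM, and Ly6c2, the surface antigen of classical monocytes, at 932 and 993 RPKM and a log2 ratio of 0.09, or 0.01 under TMM scaling.

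Most genes of resident BM macrophages were higher too. Of 24 members, 18 were higher and 6 lower, with a median of 0.41 that was 0.15 among members with at least 5 RPKM. Siglec1, the sialoadhesin CD169 of macrophages that retain HSCs in the BM, was at 1.09 and 3.24 RPKM, from 109 and 315 reads (log2 ratio 1.48, 1.25 to 1.89), and stayed at 1.00 with the length trend removed. Mertk, a receptor for dying cells, had 37 and 79 reads, reached the mean of 1 RPKM only through the 3-day library, and passed 2-fold neither under TMM (0.95) nor without the length trend (0.78). Emr1, which encodes F4/80, was at 11.6 and 17.4 RPKM (0.58, 0.44 to 0.74), Vcam1 at 29.4 and 39.9 RPKM, and the scavenger protein gene Cd68 at 56.1 and 90.8 RPKM. Hmox1, which breaks down haem, was at 67.7 and 76.2 RPKM. The lipid carrier gene Apoe, the most abundant member, was at 125 and 112 RPKM with a log2 ratio of −0.16, and the complement genes C1qa, C1qb and C1qc had ratios from −0.14 (C1qb) to −0.07 (C1qc). With the length trend removed these 4 genes were higher, with ratios from 0.11 (Apoe) to 0.28 (C1qc), so their direction depends on the scaling.

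**Figure D2:**
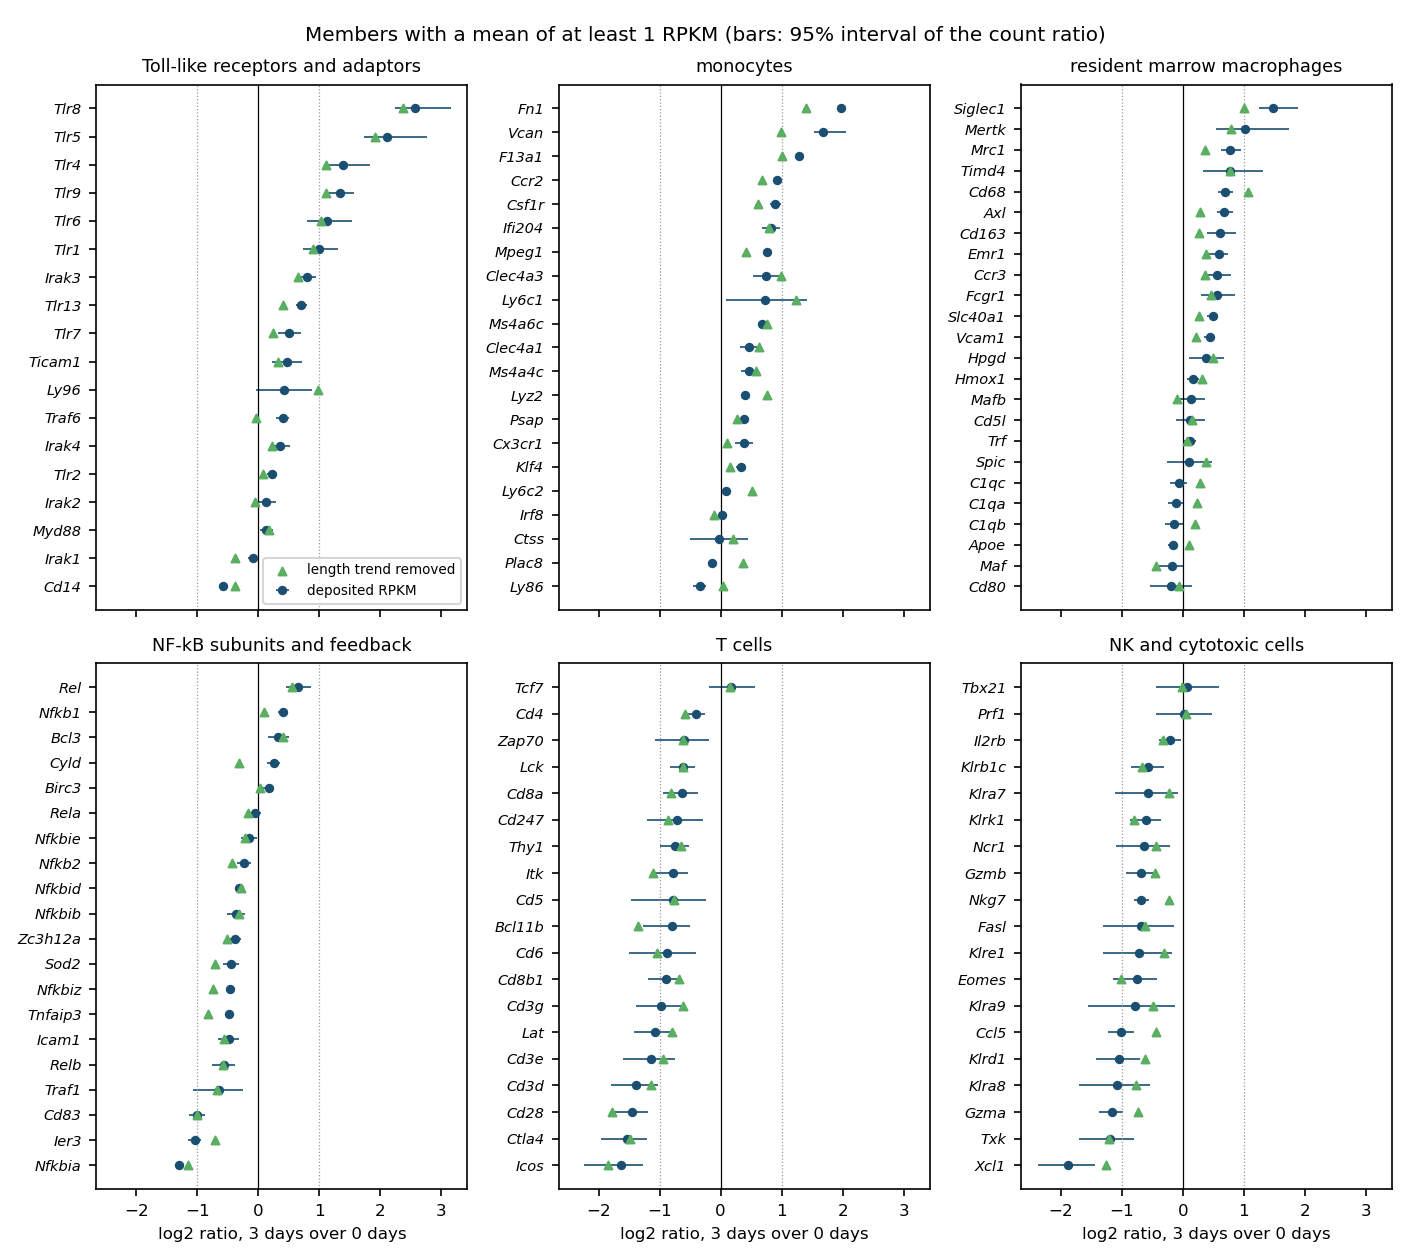
Log2 ratios, 3 days over 0 days, of the members of 6 gene lists with a mean of at least 1 RPKM. Circles are the deposited RPKM with bars for the 95% interval of the count ratio (counting error only), triangles are values with the length trend removed, and dotted lines mark 2-fold. Tlr8 at 2.56 is the highest point and Xcl1 at −1.88 the lowest.

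The medians of the stages of neutrophil maturation differed in sign with the deposited RPKM, but not without the length trend. Promyelocyte genes, which fill the primary granules, had a median of −0.16 over 10 members. Mpo, which encodes myeloperoxidase, was at 435 RPKM at 0 days and 581 at 3 days, while Elane, the neutrophil elastase, was at 1142 and 923 RPKM. Genes of the secondary and tertiary granules had a median of 0.19, with medians of the members' interval ends of −0.03 and 0.36. Of 20 members, 1 was at least 2-fold higher, near the 3.62% of all genes. Without the length trend 3 of 20 were. The member past 2-fold with the deposited RPKM was Mmp25, a membrane-anchored protease of neutrophils, at 18.9 and 54.98 RPKM (log2 ratio 1.54, 1.44 to 1.65), which was at 16.99 RPKM at 5 days. Ltf, the lactoferrin gene, was at 4360 and 4010 RPKM, Ngp at 21998 and 21281 RPKM, and Camp, the cathelicidin gene, at 14235 and 7762 RPKM (−0.87, −0.89 to −0.86). Genes of mature neutrophils had a median of −0.22 over 19 members, with 0 at least 2-fold changed. S100a9, the most abundant mRNA of the libraries, was at 61729 and 44195 RPKM, and S100a8 at 28717 and 23982 RPKM. The receptor Cxcr2, through which mature neutrophils leave the BM, went against these, at 63.8 and 112 RPKM (0.82, 0.75 to 0.88). These directions depend on length. The granule and S100 genes are short, and with the length trend removed the promyelocyte median was 0.16, the granule median 0.37 and the mature neutrophil median 0.13.

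Most chemokines were lower, cytokines were mixed, and most receptors were higher. Of 12 chemokines tested, 11 were lower and 1 was higher, and 3 were at least 2-fold lower, where 2.04% of all genes were lower. Their median was −0.75. Without the length trend it was −0.45, and only 1 (Ccl4) stayed past 2-fold. Ccl4 and Ccl5, which attract monocytes and T cells, were at 594 and 199 RPKM and at 62.5 and 31.01 RPKM. Cxcl10, which is induced by interferon, was at 106 and 49.7 RPKM. Ccl3, the most abundant, was at 835 and 534 RPKM (−0.64, or −0.19 without the length trend), and Ccl6 of myeloid cells was at 420 and 398 RPKM, with a log2 ratio of −0.08. Among 14 cytokines of the TNF, IL-1, IL-6 and interferon-γ group, 3 were at least 2-fold lower and 0 higher. Their median was −0.22, or −0.07 without the length trend, and the medians of the members' own interval ends were −0.45 and 0.03. The 3 past 2-fold were Ifng, Il10, which encodes an anti-inflammatory cytokine, and Il6, and without the length trend Il6 was at −0.80. Il10 had 190 reads at 0 days and 61 at 3 days (−1.57, −2.04 to −1.18), and 8 reads at 5 days. Tnf was at 92.0 and 60.5 RPKM. Osm and Il1b, cytokines of neutrophils and monocytes, had log2 ratios of 0.01 (−0.03 to 0.06) and −0.05 (−0.11 to 0.01), and Tgfb1 was at 104 and 148 RPKM. Csf3, the gene of the mobilizing cytokine G-CSF, had 11 and 10 reads. The receptors of such ligands had a median of 0.57 over 17 members, of which 13 were higher. It was 0.30 without the length trend. Il6ra, the receptor of IL-6, was at 11.8 and 25.2 RPKM (1.09, 0.96 to 1.24), but at 0.88 with the length trend removed, and Csf2ra, a subunit of the GM-CSF receptor, at 117 and 180 RPKM. Of these 17, only Il1r2, a decoy that binds IL-1 without signalling, was at least 2-fold lower, at 226 and 109 RPKM. It was at 14.03 RPKM at 5 days, and its ratio of −1.04 went to −0.81 without the length trend.

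Of the NF-kB subunits and feedback genes, 15 of 20 were lower and 5 higher. The median over 20 members was −0.38, and −0.47 with the length trend removed. Nfkbia, which encodes the inhibitor IkBα, was the most abundant and the lowest, at 991 RPKM at 0 days and 401 at 3 days (log2 ratio −1.31, −1.34 to −1.27). Ier3, a survival gene induced by NF-kB, was at 148 and 71.6 RPKM. Tnfaip3, which encodes the ubiquitin-editing inhibitor A20, was at 170 and 122 RPKM, and Nfkbiz, the nuclear cofactor IkBζ, at 188 and 136 RPKM. Among the subunits, Rel had 350 and 539 reads and a log2 ratio of 0.65 (0.46 to 0.86), Nfkb1 had 0.40, Rela −0.05, Nfkb2 −0.24 and Relb −0.57. Among the feedback genes, Bcl3, Cyld and Birc3 had 0.33, 0.25 and 0.17, of which Cyld turned to −0.31 without the length trend.

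The κB motif, the DNA site that NF-kB binds, was sought in RefSeq promoters (GRCm38.p6, the 250 bases before the start) on both strands, as GGG, any 2 bases and TTTCC. It was held by 4 of 8 chemokine promoters (50%), 5 of 16 promoters of NF-kB subunits and feedback genes (31.3%) and 4 of 12 of the cytokines (33.3%), but by 160 of 8771 promoters of all genes tested (1.82%). None of 14 TLR promoters and none of 17 monocyte promoters matched, and 2 of 25 promoters of the genes lower in all 3 scalings did (8.00%), as did 2 of 69 of those higher in all 3 (2.90%). Of the BCL2 family, 3 of 14 matched (21.4%). Of the 13 members of the cytokine, chemokine and NF-kB lists with a match, 9 were lower, or 11 without the length trend. In these lists as a whole 10 of 14, 11 of 12 and 15 of 20 were lower, or 9, 10 and 16 without the trend. Among them Nfkbia and Il6 were at least 2-fold lower, Cxcl2 had a log2 ratio of −0.99, and Rel, Cyld, Csf1 and Il1rn had ratios from 0.03 (Il1rn) to 0.65 (Rel), of which Rel alone stayed above 0 with the length trend removed. The 3 promoters below, chosen after their values were seen as abundant members that were lower at 3 days, are printed 5′ to 3′ along the gene, with the matched bases in capitals. The site lies 29 bases before the start in Nfkbia (chr12:55492648-55492897, minus strand) and 12 bases before it in Tnfaip3 (chr10:19015411-19015660, minus strand). Cxcl2, the neutrophil chemokine at 379 and 192 RPKM, has 2 matches, 97 and 78 bases before the start (chr5:90903649-90903898, plus strand). A match describes the letters of this window and is not evidence of binding.
Nfkbia: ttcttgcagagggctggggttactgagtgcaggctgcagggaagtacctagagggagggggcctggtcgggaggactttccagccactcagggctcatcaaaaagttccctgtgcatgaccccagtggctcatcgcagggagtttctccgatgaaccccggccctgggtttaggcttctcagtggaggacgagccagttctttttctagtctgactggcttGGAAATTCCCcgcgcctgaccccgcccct
Tnfaip3: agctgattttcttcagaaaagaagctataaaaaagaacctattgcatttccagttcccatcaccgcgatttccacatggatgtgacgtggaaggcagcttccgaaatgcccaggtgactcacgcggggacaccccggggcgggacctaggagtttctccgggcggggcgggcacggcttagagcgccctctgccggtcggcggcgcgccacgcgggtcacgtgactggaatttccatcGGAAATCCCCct
Cxcl2: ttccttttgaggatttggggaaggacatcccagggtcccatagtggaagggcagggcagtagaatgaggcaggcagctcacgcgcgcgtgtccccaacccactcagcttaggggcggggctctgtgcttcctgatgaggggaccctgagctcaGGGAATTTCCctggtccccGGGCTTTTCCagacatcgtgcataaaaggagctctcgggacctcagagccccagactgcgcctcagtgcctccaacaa

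Immediate early genes, which answer a stimulus without new protein synthesis, were lower as a list but none was at least 2-fold lower. Of 21 members, 20 were lower and 1 was higher, and the median was −0.36. Without the length trend the median went to −0.40, with 17 members lower. Btg1 and Btg2, which restrain cell division, were at 442 and 306 RPKM and at 348 and 278 RPKM, and Nr4a1, an orphan nuclear receptor, at 317 and 280 RPKM. Of the AP-1 and ATF factors, 9 of 12 were lower, or 11 of 12 without the length trend, and the median was −0.19. Fos was higher, at 700 and 890 RPKM (log2 ratio 0.35, 0.32 to 0.37), Junb and Jund were lower, with −0.42 and −0.53, and Maff, a small Maf repressor, was 2-fold lower at 15.2 and 7.52 RPKM, with a ratio of −1.003, or −0.91 without the length trend. The Kruppel-like factors had a median of 0.10. Klf2, which keeps leukocytes quiescent, was at 1147 and 617 RPKM (−0.89, −0.92 to −0.87) and Klf13 had 0.24, or −0.24 with the length trend removed. The MAP kinase phosphatases had a median of −0.23. Dusp1 was at 388 and 430 RPKM, and Dusp2 and Dusp6 had ratios of −0.57 and −0.40. Zfp36, which encodes the cytokine mRNA decay factor tristetraprolin, was at 1228 and 1055 RPKM, while its relative Zfp36l2 was at 126 and 153 RPKM. The 10 decay factors had a median of 0.24 that became −0.18 with the length trend removed. In the SOCS family of receptor feedback inhibitors, Socs3 was at 29.8 and 22.6 RPKM, and the median of 7 members was −0.05, or −0.52 without the length trend.

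T cell genes were the list with the lowest median. It was −0.80 over 19 members, −0.88 under TMM scaling and −0.82 with the length trend removed. Of these members, 18 were lower and 6 were at least 2-fold lower with the deposited RPKM, where 2.04% of all genes were. The genes of the T cell receptor complex Cd3d, Cd3e and Cd3g had 217 and 80 reads, 157 and 68 reads, and 182 and 89 reads. The costimulatory and coinhibitory receptors lay lowest. Icos had 164 and 48 reads (log2 ratio −1.64, −2.23 to −1.27), Ctla4, an inhibitory receptor of regulatory T cells, 241 and 79 reads (−1.54, −1.96 to −1.20), and Cd28, which delivers the second signal, 336 and 116 reads (−1.45, −1.82 to −1.19). Icos, which is among the 6, was at 3.23 and 0.97 RPKM and reached the mean of 1 RPKM only through the 0-day library. Thy1, Lck and Cd4, the most abundant members, had ratios of −0.75, −0.62 and −0.40, and the last 2 are also known outside T cells. At 5 days Cd3e, at 4.35 RPKM, Lat, at 7.11, and Thy1, at 12.02, stood above their levels at 3 days and below those at 0 days, while Cd3d, at 2.57 RPKM, stood below its 3.97 RPKM at 3 days.

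NK and cytotoxic genes were lower as well, with a median of −0.68 over 19 members and −0.49 with the length trend removed. Besides Xcl1 and Ccl5, the granzyme gene Gzma, at 50.7 and 22.5 RPKM, the lectin receptors Klrd1, at 15.5 and 7.39 RPKM, and Klra8, and the kinase Txk were at least 2-fold lower, 6 of 19 in all, where 2.04% of all genes were. Without the length trend 3 of 19 were. The defining receptors Ncr1 (119 and 74 reads) and Klrb1c, which encodes NK1.1 (289 and 189 reads), had ratios of −0.63 and −0.57. Nkg7, a granule protein that is also found in promyelocytes, was at 120 and 74.7 RPKM. Ncr1 and Gzma stood at 5.68 and 32.6 RPKM at 5 days, above 3.34 and 22.5 RPKM at 3 days.

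B cell genes showed no common direction. Genes of mature B cells had a median of −0.02 over 16 members, with Ms4a1, which encodes CD20, at 77.9 and 94.8 RPKM. Genes of pro-B and pre-B cells had a median of −0.09. Rag1, a subunit of the recombinase that assembles antigen receptors, was at 17.9 and 42.4 RPKM (log2 ratio 1.24, 1.17 to 1.33), and 0.75 with the length trend removed, whereas Vpreb1, part of the pre-B receptor, was at 60.8 and 33.3 RPKM. Plasma cell genes had a median of −0.22 over 8 members, with 6 lower and 2 higher, and medians of the members' interval ends of −0.54 and 0.16. Mzb1, a chaperone of antibody secretion, was the lowest, at 74.8 and 45.2 RPKM. The defining genes Sdc1 and Prdm1 had ratios of −0.11 and −0.16.

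Plasmacytoid dendritic cell genes and genes of MHC class II were mostly lower. Plasmacytoid dendritic cell genes had a median of −0.53 over 12 members. Siglech, their defining lectin, was at 52.3 and 30.99 RPKM (log2 ratio −0.75, −0.86 to −0.65), Bst2, an antiviral protein that is also induced by interferon, at 174 and 74.3 RPKM, Tcf4, their lineage factor, at 44.2 and 28.03 RPKM, and Cox6a2 at 53.7 and 23.2 RPKM. Spib, a transcription factor shared with B cells, was higher, at 171 and 209 RPKM. Conventional dendritic cell genes had a median of −0.25, with Ccr7, the receptor that guides these cells to lymph nodes, at 66.5 and 36.2 RPKM, and Irf4, a factor shared with B and plasma cells, at 66.3 and 74.4 RPKM. The medians of the interval ends of the conventional dendritic cell members were −0.54 and 0.06. Of 13 genes of MHC class II presentation, 11 were lower, with a median of −0.30. Without the length trend 9 were lower and the median was −0.18. H2-Ab1 and Cd74, the class II β chain and invariant chain, had ratios of −0.78 and −0.42. MHC class I genes had a median of −0.34, which went to −0.13 without the length trend, with the light chain B2m at 2402 and 2201 RPKM, a ratio of −0.13 that turned to 0.31 without the trend.

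Genes of haematopoietic stem and progenitor cells were mostly lower. The study asked whether LECT2 acts on HSCs, which are too few in flushed BM for these libraries to report on them directly. Of 16 members tested, 13 were lower, with a median of −0.32 and of −0.49 with the length trend removed. Cd34, a sialomucin of progenitors and endothelium, was at 24.1 and 14.6 RPKM (log2 ratio −0.72, −0.87 to −0.57), Flt3, the receptor of lymphoid-primed progenitors and dendritic cells, at 14.5 and 9.21 RPKM, and the transcription factor gene Sox4 at 97.5 and 68.3 RPKM. Kit, the stem cell factor receptor, was at 8.19 and 10.01 RPKM, and its ratio of 0.29 went to −0.12 without the length trend, while Myb was at 89.8 and 114 RPKM. Ly6a, the gene of the Sca-1 antigen, had 8 and 12 reads, so no difference was detectable at this depth. Cd34 and Flt3 stood at 21.9 and 13.6 RPKM at 5 days, above their levels at 3 days, while Sox4 and Ctla2a, at 53.1 and 18.03 RPKM, stood below theirs.

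Genes of HSC retention and mobilization moved both ways, with a median of 0.15 and 11 of 19 members higher, or 9 of 19 without the length trend. Past 2-fold were 1 upwards (Itga4) and 1 downwards (Ctsk), near the 3.62% and 2.04% of all genes. Cxcl12, the chemokine SDF-1 made by reticular stroma, was at 15.9 and 10.9 RPKM (log2 ratio −0.54, −0.67 to −0.43) and at 5.38 RPKM at 5 days. Its receptor Cxcr4, which neutrophils and B cells also carry, was at 422 and 371 RPKM (−0.19, −0.22 to −0.15). Dpp4, the peptidase that inactivates CXCL12, was at 18.7 and 25.3 RPKM, and its ratio of 0.43 went to 0.03 without the length trend. Itga4, an integrin subunit that binds VCAM1, was at 20.2 and 41.9 RPKM, but it is 9833 bases long and its ratio of 1.05 was 0.43 without the trend. Mmp9, a matrix protease of neutrophils, was at 353 and 556 RPKM (0.66, or 0.47 without the trend). Ctsk, the collagenase of osteoclasts, had 116 and 43 reads (−1.35, −1.94 to −0.88). It was the lowest of 10 osteoclast genes tested, of which 7 were higher. Their median was 0.19, or −0.03 without the length trend, where 3 were higher. The 4 LECT2 receptors and paralogues tested had a median of −0.30. Cd209a had 239 and 195 reads (−0.26, −0.54 to 0.02), with an interval that includes 0. Its paralogues Cd209c and Cd209d had 449 and 343 reads and 192 and 98 reads. Met had 166 and 372 reads and 947 at 5 days. Its ratio of 1.15 (0.93 to 1.47) was 0.66 with the length trend removed.

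Osteolineage genes had a median of −0.22, with 4 of 13 higher and 9 lower. Of the collagen genes, Col1a1 was at 13.7 and 21.3 RPKM (log2 ratio 0.63, 0.52 to 0.75) and Col1a2 at 12.8 and 14.8, or a ratio of 0.20 that turned to −0.20 without the length trend, although at 5 days they stood at 5.45 and 5.01 RPKM. Spp1, the osteopontin gene, was at 25.7 and 17.8 RPKM, and Phex, a peptidase of osteoblasts and osteocytes, had 231 and 58 reads (−1.80, −2.40 to −1.54). Phex, at 2.38 and 0.61 RPKM, reached the mean of 1 RPKM only through the 0-day library. Bgn had 221 and 184 reads, Itgav 231 and 421, and Runx2 13 and 26. Reticular stromal genes had a median of −0.27 over 13 of 24 members, of which 11 were lower. The most abundant, also made by other cells, were the haptoglobin gene Hp, at 640 and 616 RPKM, Apoe, and Igfbp4, at 63.3 and 55.9 RPKM. The leptin receptor gene Lepr, which marks niche cells, had 157 and 84 reads, and the chemokine gene Cxcl14 90 and 40. Only 6 of 21 endothelial genes had a mean of at least 1 RPKM. Their median was −0.42, with 4 lower and 2 higher. The endothelial cadherin gene Cdh5 had 156 and 95 reads, Pecam1 1957 and 1677, and Eng 200 and 251.

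Erythroid genes had a median of −0.02 over 36 members. The α-globin gene Hba-a1, at 2253 and 1591 RPKM, and the β-globin gene Hbb-b1, at 1696 and 1387 RPKM, were lower with the deposited RPKM, but with the length trend removed their ratios were 0.08 and 0.26. Spnb1, the red cell spectrin gene, was at 3.61 and 7.99 RPKM, and 10417 bases long, and its ratio of 1.13 was 0.49 without the trend. Of 18 megakaryocyte and platelet genes, Pf4, Ppbp, another platelet chemokine, and Nrgn were at least 2-fold lower and 0 higher, where 2.04% of all genes were lower. The median was −0.24, 7 of the 18 were higher, and 1 (Pf4) stayed past 2-fold without the length trend. The abundant members Plek, a platelet kinase substrate, and Rgs18, a G protein regulator, were at 87.8 and 97.9 RPKM and at 28.6 and 38.6 RPKM. Ppbp had 160 and 69 reads, and 192 reads at 5 days. Genes of basophils, mast cells and eosinophils had a median of 0.05. The basophil protease gene Mcpt8 was at 239 and 164 RPKM, and Ms4a2, the β chain of the IgE receptor, at 3.13 and 7.12 RPKM. Il4, a cytokine of basophils and T cells, had 38 and 16 reads.

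**Figure D3:**
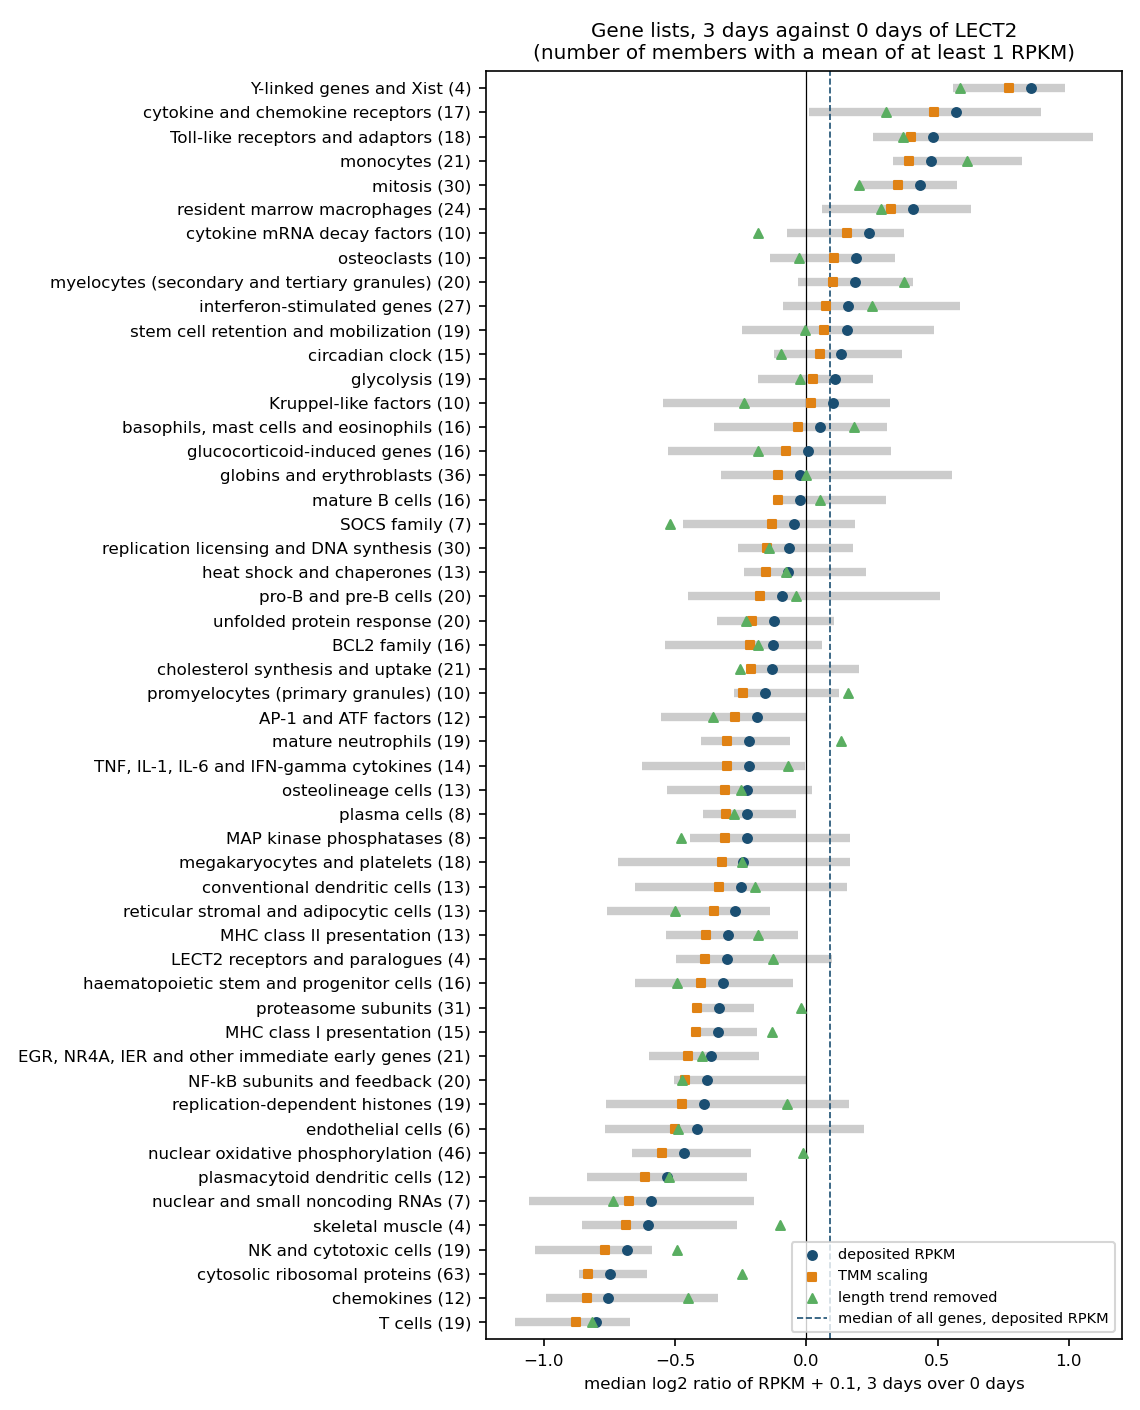
Median log2 ratio, 3 days over 0 days, of 52 gene lists with at least 4 members tested, under the deposited RPKM (circles), TMM scaling (squares) and with the length trend removed (triangles). Grey bars span the quartiles of the members. T cells, at −0.80, have the lowest median and shift little under the other scalings, whereas ribosomal proteins shift from −0.75 to −0.25.

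Housekeeping lists of short genes were lower with the deposited RPKM. All 63 ribosomal protein genes tested were lower, with a median of −0.75, and 7 were at least 2-fold lower, where 2.04% of all genes and 9.96% of the shortest length decile were, among them Rplp1, at 3272 and 1329 RPKM. With the length trend removed the median was −0.25 and 0 of the 63 were 2-fold lower. Rps15a, outside this list and noticed after its values were seen, is listed at 5158 bases and was at 66.8 and 32.4 RPKM (−1.04, or −1.44 without the trend). The 46 nuclear genes of oxidative phosphorylation had −0.47, and −0.01 without the trend, with Ndufa2 past 2-fold at 114 and 55.04 RPKM (−1.06, or −0.45 without it). The 31 proteasome subunits had −0.33, and −0.02 without it. Mitosis genes, which are long, went the other way. Their median of 0.43 over 30 members was 0.20 with the trend removed, with Mki67 at 67.3 and 115 RPKM and Top2a at 81.2 and 113 RPKM. Without the trend the ratios of these 2 were 0.14 and 0.07. Genes of replication licensing and DNA synthesis had −0.06, with Pcna at 332 and 255 RPKM, so the 2 cell-cycle lists did not share a direction. Histone genes had −0.39 over 19 members, and −0.07 without the trend, and the medians of the members' interval ends were −1.27 and 0.20.

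Stress and metabolic lists stayed near the median of all genes. Heat shock genes had −0.07, although Hsp90aa1, the inducible HSP90, was at 474 and 261 RPKM (log2 ratio −0.86, −0.89 to −0.83). The unfolded protein response had a median of −0.12. The sensor kinase gene Ern1 was at 1.43 and 5.68 RPKM (1.92, 1.65 to 2.35) and Sesn2 at 2.82 and 6.21 RPKM, while the effector Atf4 was lower, at 448 and 291 RPKM. Interferon-stimulated genes had a median of 0.16 over 27 members, beside 0.09 over all genes, with Rsad2 at 60.7 and 77.6 RPKM and Ifitm3 at 695 and 678 RPKM. Of the 27, 17 were higher, where more of all genes were higher than lower too. Glycolysis, cholesterol synthesis, circadian clock, glucocorticoid-induced and BCL2 family genes had medians from −0.13 to 0.13. Among them Tsc22d3, the glucocorticoid-induced GILZ, was at 278 and 172 RPKM. Members past 2-fold included the metal-binding Mt1, at 91.8 and 40.5 RPKM, the clock repressor Gm129, at 9.47 and 4.401, and the survival gene Bcl2a1b, which has near-identical copies, at 7.84 and 3.46. Without the length trend their ratios were −0.61, −0.86 and −0.68.

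Markers of tissues around the marrow were low, and several were lower at 3 days. Only 1 of 12 cartilage genes, 4 of 16 muscle genes and 2 of 14 liver genes reached a mean of 1 RPKM. The cartilage collagen genes Col2a1 and Col10a1 had 62 and 13 reads and 40 and 13 reads, while Col11a2 had 144 and 147. Of the muscle genes, Acta1 had 26 and 6 reads, Atp2a1 130 and 60, Tnni2 81 and 45, Mylpf 90 and 66, and Tnnt3 53 and 58. The liver gene Apoa2 had 20 and 6 reads, the albumin gene Alb 1 and 0, and Trf, which macrophages also express, 1416 and 1492. The part of such tissue in other differences was not tested. Of the Y-linked genes, Kdm5d had 254 and 513 reads, Eif2s3y 1012 and 1649 reads and Ddx3y 1320 and 1314 reads, which gives ratios from 0.03 to 1.03 on 1 chromosome. Of the noncoding RNAs Rn7sk, a regulator of transcription elongation that lacks a poly(A) tail, was at 220 and 69.0 RPKM, and at 4.47 RPKM at 5 days, although the libraries were made from poly(A) RNA. Malat1, a long nuclear RNA, was at 364 and 293 RPKM.

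The length of the gene moved with the ratio in every part of the range. In the lowest decile of length, up to 1039 bases, the median log2 ratio was −0.49, and in the highest, from 5783 bases, it was 0.54. TMM scaling shifted both, to −0.57 and 0.46, and kept the slope. At least 2-fold higher were 1.45% of the shortest decile and 9.60% of the longest, and at least 2-fold lower 9.96% and 0.362%.

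The gene models of the table moved with the largest differences upwards as well. The length that the table gives a gene was set beside the longest transcript of that gene in GENCODE M21. Where they agreed within a ratio of 0.9 to 1.1 (7918 genes), 2.42% of genes were at least 2-fold higher at 3 days. Where GENCODE was 1.5 to 2 times as long (560 genes) it was 10%, and where it was 2 to 3 times as long (387 genes) it was 15.5%. Over 3 times as long (191 genes) it was 6.81%, so the share did not go up throughout. With the length trend removed these shares were 1.04%, 7.68%, 13.4% and 9.95%. The share at least 2-fold lower was 1.88%, 2.68%, 1.81% and 3.66% in the same groups, and 1.55%, 0.893%, 0.517% and 1.05% with the trend removed. Of the 81 leading genes upwards, 80 have a GENCODE transcript, and in 47 (58.8%) it was over 1.5 times as long as the table, against 10.4% of all 8274 genes under the same minimum of 5 RPKM and 1 of 34 leading genes downwards (2.94%). Of the leading genes, Cpeb4 is listed at 2312 bases against 6303 in GENCODE, Uhmk1 at 2041 against 7864, Cbl at 5083 against 11372 and Abhd2 at 2903 against 6877. Of the list members named above as higher, Ern1 is listed at 3976 bases against 6946, Il6ra at 3343 against 8639 and Ms4a2 at 1010 against 2391. The part of the gene model in their ratios was not tested. Among the leading genes whose lengths agree are Tlr8, Zbed6, Cd101 and Fn1. Next to them, and chosen after their values were seen, stood Abca13, a lipid transporter, at 1.31 and 5.17 RPKM, and Fam38a, the mechanosensitive channel PIEZO1, at 2.23 and 6.89 RPKM.

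**Figure D4:**
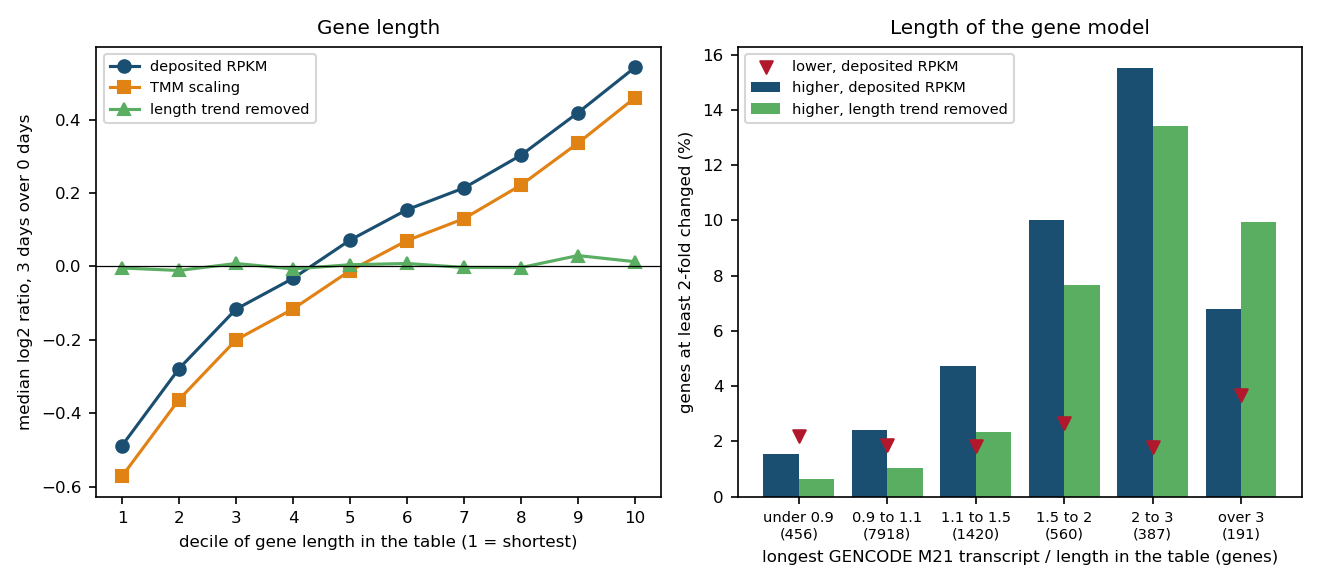
Left, median log2 ratio, 3 days over 0 days, in 10 groups of equal size ordered by gene length, under 3 scalings. Right, share of genes at least 2-fold higher (bars) or lower (triangles) by the ratio of the longest GENCODE M21 transcript to the length in the table, with the number of genes in brackets, where the share higher goes from 2.42% at matching lengths to 15.5% at ratios of 2 to 3.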

How the data were processed

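RNA of flushed BM cells of 3 libraries (0, 3 and 5 days of LECT2) was sequenced from poly(A) RNA. The authors deposited, for each gene, a read count and its RPKM, normalised for gene length and library total. The methods name Cufflinks and the submitters' notes mm8, while the aligner is not given in the sources used here. A gene without reads is listed at 0.01 RPKM and was set to 0. The deposited log2 ratios, P values and FDRs of the authors' own comparison were not used. Where a name had several rows (203 names), only its most abundant row by mean RPKM entered.

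Log2 ratios of RPKM + 0.1 were computed in Python 3.11.15 (pandas 2.3.3, statsmodels 0.14.6 for the length curve), with TMM factors from edgeR 4.0.16 and median-of-ratios factors from DESeq2 1.42.0 in R 4.3.3. No model was fitted, as each time point has 1 library of about the same depth. The 0-day library is shared by the 3-day and 5-day values, which are only given side by side. The members and the 54 gene lists were chosen with earlier results of these data known. Genes were named from the 10 largest differences each way past 2-fold in 3 scalings (at least 5 RPKM in either library, more than 3 reads in both), for each list its 3 most abundant and up to 6 members past 2-fold, genes the study discusses, and the first 3 markers of a cell type. Outside this rule, and chosen after their values were seen, were Tlr1, Tlr7, Tlr13, Irak1, Irak3, Irak4, C1qa, C1qb, C1qc, Csf1r, Cxcr2, Rel, Rela, Cxcl2, the other named holders of the κB motif, Bcl3, Birc3, Nfkb1, Nfkb2, Relb, Rps15a and the 2 genes with matching models at the end of the report. Counts of the 3-day and 0-day libraries (11034 genes) were simulated with counting error only, no spread between mice and a length trend put in. After removal of the trend, 100% of 200 genes with 4-fold changes were recovered past 2-fold, and 0.203% of 10825 unchanged genes were called. Changes near 2-fold were not simulated. The alternatives were other scalings, pseudocounts, minima and folds, the sum of rows, and, added after seeing the data, genes whose length matches GENCODE. Results that involve withheld genes are not reported here.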

Additional observations from a re-analysis of the deposited data

How the results depend on the processing

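No paired analysis was possible because each time point has 1 library, and for the same reason no library could be left out. A pseudocount of 1 RPKM left 190 genes at least 2-fold higher and 120 lower, in place of 462 and 273, a minimum of 5 RPKM 236 and 118, no minimum 831 and 688, and a fold of 4 gave 36 and 33. The higher genes numbered 299 with the length trend removed, 295 with TMM as well, and 228 where the length matches GENCODE, an alternative chosen after seeing the data. Of the genes past 2-fold, 62.9% were higher with the deposited RPKM, 48.6% under TMM, 53.5% under median-of-ratios, 59.8% after removal of the length trend and 46.8% when the 100 most abundant genes were left out of the totals. A list median was compared with the medians of its members' interval ends, which do not form an interval of the list median itself. List medians that moved outside them were as follows, and the cause was not tested.

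Under TMM they were −0.27 (AP-1), −0.21 (unfolded protein response), −0.83 (ribosome), 0.069 (stem cell retention), −0.42 (MHC class I), −0.24 (promyelocytes), −0.30 (mature neutrophils), −0.18 (pro-B and pre-B), −0.11 (mature B) and −0.68 (noncoding RNAs). Under median-of-ratios they were −0.24 (AP-1), −0.81 (ribosome) and −0.27 (mature neutrophils). Without the 100 most abundant genes they were 0.47 (receptors), −0.29 (AP-1), −0.22 (unfolded protein response), −0.85 (ribosome), −0.43 (proteasome), 0.055 (retention), −0.44 (MHC class I), −0.26 (promyelocytes), −0.31 (mature neutrophils), −0.63 (plasmacytoid dendritic cells), −0.19 (pro-B and pre-B), −0.12 (mature B) and −0.69 (noncoding).

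With the length trend removed, the sign turned for mRNA decay factors (−0.18), retention (0.00, or −0.0033), promyelocytes (0.16), mature neutrophils (0.13) and osteoclasts (−0.029). It also turned for medians near 0 at first, Kruppel-like (−0.24), glucocorticoid (−0.18), glycolysis (−0.025), mature B (0.051) and cartilage (−0.37). Other moved medians were 0.30 (receptors), −0.36 (AP-1), −0.48 (MAP kinase phosphatases), −0.52 (SOCS), −0.23 (unfolded protein response), −0.013 (oxidative phosphorylation), −0.25 (ribosome), −0.020 (proteasome), 0.20 (mitosis), −0.13 (MHC class I), 0.37 (myelocytes), 0.18 (basophils, mast cells and eosinophils), −0.10 (muscle), 0.58 (Y-linked and Xist) and −0.74 (noncoding). TMM before removal of the trend gave the same values, apart from 0.59 (Y-linked and Xist), −0.0044 (retention), −0.026 (glycolysis), −0.014 (oxidative phosphorylation), −0.021 (proteasome), 0.050 (mature B) and −0.030 (osteoclasts).

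A minimum of 5 RPKM gave −0.094 (AP-1), 0.092 (mRNA decay), 0.15 (macrophages), −0.65 (plasmacytoid), 0.38 (Y-linked and Xist) and, reversed, 0.11 (liver). No minimum gave −0.41 (plasmacytoid), −0.33 (noncoding) and, reversed, −0.28 (cartilage) and 0.025 (LECT2 receptors). Matching lengths gave 0.30 (receptors), −0.27 (unfolded protein response), −0.78 (plasmacytoid), −1.01 (noncoding) and, reversed, −0.30 (Kruppel-like). All 54 list medians stayed within the medians of their members' interval ends under both other pseudocounts and the sum of rows.

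Of 272 named genes, 113 moved beyond their counting interval under TMM and 176 with the length trend removed, and none of those past 2-fold turned its sign. With 1 library a side, counting error is the smallest part of the error that can be given, and the spread between mice is not known from these data.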

Other observations

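Some genes that BM cells are known to express well were counted with few reads. Csf3r, the G-CSF receptor of neutrophils, had 25 reads at 0 days and 57 at 3 days, and Ctss, a cathepsin of phagocytes, had 79 and 76. Xbp1, a factor of the unfolded protein response, had 10 and 27 reads, and Gfi1, a repressor in neutrophil development, had 8 and 11. No statement was made from these rows, and how their gene models were counted was not examined.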
